A study of Homo sapiens with 12 samples.

Results

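The genes described here are 10 negative feedback regulators and immediate early targets of the extracellular signal-regulated kinases (ERK), read in HL60 cells treated with ATRA, with a CDK4/6 inhibitor or with both. They were chosen by name from the raw count table, with earlier results of these data known, as the dual-specificity phosphatases DUSP1, DUSP2, DUSP4, DUSP5 and DUSP6, the Sprouty genes SPRY1 and SPRY2, their relative SPRED1, and PHLDA1 and IER3. They are 10 of the 59251 genes in the table, and 8 of them were among the 13318 genes with enough counts to be tested. SPRED1 and IER3 had too few counts. HL60 is a human acute myeloid leukemia cell line that carries a mutant allele of NRAS, and all 12 libraries came from this line. The 4 groups of 3 libraries were non-treated cells, cells given 1 µM all-trans retinoic acid (ATRA), cells given 1 µM palbociclib (CDK4/6i) and cells given both drugs (CDK4/6i+ATRA), each treatment lasting 48 h. The controls are described as non-treated, with no vehicle named. On hg38 the table places DUSP1 at chr5:172768096-172771195 (minus strand), DUSP2 at chr2:96143169-96145440 (minus), DUSP5 at chr10:110497907-110511533 (plus), DUSP6 at chr12:89347235-89352501 (minus), SPRY1 at chr4:123396795-123403760 (plus), SPRY2 at chr13:80335976-80341126 (minus), SPRED1 at chr15:38252836-38357249 (plus), PHLDA1 at chr12:76025447-76031776 (minus) and IER3 at chr6:30743199-30744547 (minus), and DUSP4 on chromosome 8. The comparisons ask how a retinoid and an arrest of the cell cycle act on the genes, each alone and together.

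The ERK kinases are the last of a cascade that runs from receptors through RAS, RAF and MEK. Active ERK phosphorylates transcription factors that switch on immediate early genes, and some of these genes encode proteins that turn the cascade down again. DUSP proteins remove the activating phosphates from MAP kinases, Sprouty and SPRED proteins act further up between receptor, RAS and RAF, and transcripts such as DUSP6 and SPRY2 are widely read as a sign of ERK activity. These libraries hold transcripts only, and neither phosphorylated ERK nor protein was measured in them.

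Total counts were 12230923 to 18679544 per library, with the CDK4/6i+ATRA libraries the smallest. Values are given as CPM, counts relative to a common library total, scaled by edgeR's TMM method, and 3 counts corresponded to 0.156 to 0.275 CPM. MPO, the granule peroxidase of promyelocytes, stood at 6517 CPM in non-treated cells and CD33, a surface antigen of myeloid cells, at 93.9 CPM. ELANE, AZU1 and PRTN3 were listed at 0 in every library, and all 3 are listed in the table on further contigs beside their chromosome, as IER3 is. HBB and HBA1, markers of erythroid cells, were at 0 as well. Summed epithelial and fibroblast markers did not exceed 1.01 CPM in any library, T cell markers ranged up to 3.10 CPM, and B cell markers from 12.6 to 25 CPM, almost all of it CD79A.

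The promoters of 7 of the 10 genes were matched by symbol in the RefSeq promoter table of GRCh38.p14, whose start sites are those of the deposited table. DUSP5 and IER3 had no entry, and DUSP4 is not printed. The 250 bases before the start site are shown for 4 genes that rose with both drugs (PHLDA1, SPRY2, DUSP6 and DUSP2), for the one that fell (SPRY1) and for the one that stayed low in every library (DUSP1), so that members with like responses can be set beside members with unlike ones. Each runs 5′ to 3′ on the gene's own strand and ends at the base before the start site. Capitals mark a match to 1 of 8 motifs on either strand. PHLDA1 is at chr12:76031777-76032026 (minus strand), SPRY2 at chr13:80341127-80341376 (minus), DUSP6 at chr12:89352502-89352751 (minus), DUSP2 at chr2:96145441-96145690 (minus), SPRY1 at chr4:123396545-123396794 (plus) and DUSP1 at chr5:172771196-172771445 (minus).
PHLDA1: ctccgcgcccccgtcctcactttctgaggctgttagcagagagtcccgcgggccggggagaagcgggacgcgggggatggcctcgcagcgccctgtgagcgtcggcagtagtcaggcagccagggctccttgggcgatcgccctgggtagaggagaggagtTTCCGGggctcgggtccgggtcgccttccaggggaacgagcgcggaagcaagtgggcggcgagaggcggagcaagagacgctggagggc
SPRY2: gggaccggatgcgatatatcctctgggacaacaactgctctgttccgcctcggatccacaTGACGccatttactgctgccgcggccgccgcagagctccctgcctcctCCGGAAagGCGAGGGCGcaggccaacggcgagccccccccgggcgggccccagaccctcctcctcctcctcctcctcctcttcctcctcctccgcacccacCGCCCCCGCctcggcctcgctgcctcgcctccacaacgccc
DUSP6: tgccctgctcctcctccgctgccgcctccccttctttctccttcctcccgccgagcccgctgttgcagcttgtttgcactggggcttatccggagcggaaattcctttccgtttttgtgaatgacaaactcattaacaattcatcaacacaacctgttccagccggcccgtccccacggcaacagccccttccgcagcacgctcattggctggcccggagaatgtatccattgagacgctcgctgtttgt
DUSP2: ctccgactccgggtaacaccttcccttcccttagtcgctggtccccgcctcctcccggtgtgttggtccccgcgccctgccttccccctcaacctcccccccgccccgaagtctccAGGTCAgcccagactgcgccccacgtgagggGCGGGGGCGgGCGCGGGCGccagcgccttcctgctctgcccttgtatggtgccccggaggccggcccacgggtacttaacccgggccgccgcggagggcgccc
SPRY1: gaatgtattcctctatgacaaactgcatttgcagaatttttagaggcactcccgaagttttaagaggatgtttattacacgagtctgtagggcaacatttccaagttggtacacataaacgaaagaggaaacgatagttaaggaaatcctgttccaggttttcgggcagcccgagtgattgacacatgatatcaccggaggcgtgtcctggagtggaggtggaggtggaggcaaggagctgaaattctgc
DUSP1: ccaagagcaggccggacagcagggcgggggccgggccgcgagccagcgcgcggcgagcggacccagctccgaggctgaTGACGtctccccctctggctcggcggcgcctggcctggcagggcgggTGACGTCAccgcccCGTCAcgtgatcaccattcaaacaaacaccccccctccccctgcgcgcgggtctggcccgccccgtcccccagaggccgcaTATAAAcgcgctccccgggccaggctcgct

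The motifs were the cyclic AMP response element (CRE, TGACGTCA), its core TGACG, the AP-1 site TGANTCA, the ETS core CCGGAA, the EGR site GCGNGGGCG, the hexamer AGGTCA of retinoic acid response elements, the TATA box TATAAA and the serum response factor's CArG box. The PHLDA1 window held 1 ETS core, at -89 to -84. SPRY2 held 1 CRE core at -190 to -186, 1 ETS core at -142 to -137 and EGR sites at -134 to -126 and -41 to -33. DUSP2 held EGR sites at -103 to -95 and -93 to -85 and the hexamer AGGTCA at -134 to -129. DUSP1 held the whole CRE at -125 to -118, which contains the CRE core on both strands, further CRE cores at -172 to -168 and -111 to -107, and a TATA box at -30 to -25. No match was found in the windows of DUSP6 and SPRY1, nor in that of SPRED1. For each gene only 1 start site was searched, the one nearest the outermost position of the gene, so any other start site is not covered. Among 35093 promoters of the same length, the CRE was found in 1.65%, its core in 21.2%, the AP-1 site in 6.57%, the ETS core in 14.5%, the EGR site in 8.41%, AGGTCA in 12.1%, the TATA box in 10.7% and the CArG box in 1.16%. A match describes these letters only and is no measured binding site.

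With both drugs, 6 of the 8 tested genes rose and 1 fell. PHLDA1 rose 303-fold against non-treated cells, DUSP4, DUSP5, DUSP6 and SPRY2 rose 7.27- to 8.33-fold, and DUSP2 rose 3.20-fold, whereas SPRY1 fell to 0.331 of its level (quasi-likelihood test of edgeR, adjusted by Benjamini-Hochberg over all tested genes, threshold 0.05). Of all tested genes, 41% were called higher and 40.7% lower in this comparison, 81.7% in either direction. Since most genes moved with both drugs, sizes say more than calls: 22.3% of all tested genes were called higher by at least 2-fold and 11% by at least 4-fold, against 6 and 5 of these 8. The median log2 fold change was 2.95 over the 8 genes and 0.02 over all tested genes. Because the genes were chosen with earlier results of these data known, such contrasts, here and below, are a description and no independent test. In bulk RNA, fewer cells with a transcript and less of it per cell cannot be told apart.

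**Figure D1:**
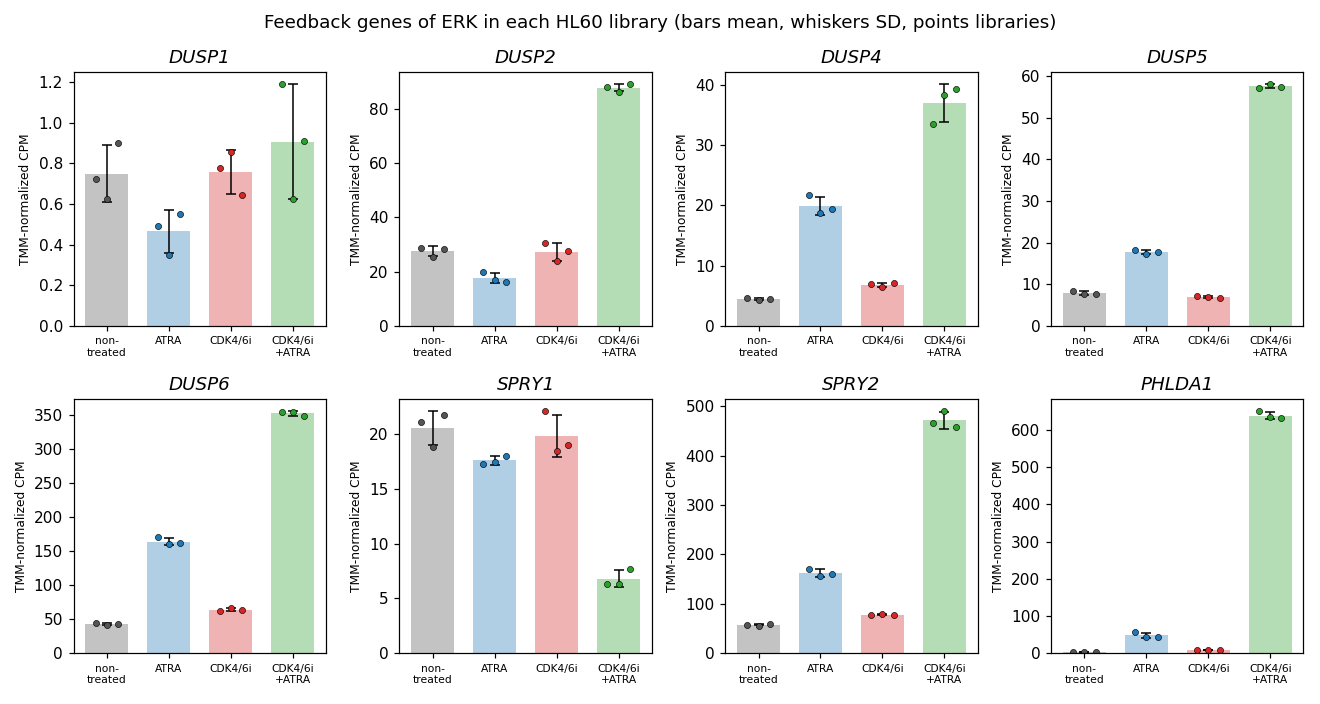
TMM-normalized CPM (y axis, linear from 0, one scale per panel) of the 8 tested feedback genes in the 4 groups, with bars for the mean, whiskers for the SD and points for the 3 libraries. The CDK4/6i+ATRA libraries lie above all others for DUSP2, DUSP4, DUSP5, DUSP6, SPRY2 and PHLDA1 and below all others for SPRY1, while the DUSP1 libraries all lie between 0.350 and 1.19 CPM. Over all tested genes, these libraries lie above all others for 28.3% and below all others for 25.7%.

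Among the phosphatases, DUSP6 is the cytoplasmic one that acts on ERK in preference to other MAP kinases. It was measured at 43.6, 41.1 and 42.3 CPM in non-treated cells, 171, 160.0 and 162 under ATRA, 61.5, 66.3 and 63.1 under CDK4/6i, and 354, 355 and 349 under both drugs. The 4 groups did not overlap, and they lay in the order non-treated, CDK4/6i, ATRA and CDK4/6i+ATRA. DUSP6 rose with ATRA by 1.95 on the log2 scale (SE 0.045, adjusted p = 1.50e-37), with CDK4/6i by 0.59 on the log2 scale (SE 0.049, adjusted p = 9.78e-15) and with both by 3.06 on the log2 scale (SE 0.044, adjusted p = 6.47e-47), all by edgeR's quasi-likelihood test. It was backed by 655 to 751 counts per non-treated library and 3865 to 4223 per library with both drugs.

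DUSP4, a nuclear phosphatase of ERK and JNK that is itself induced by ERK, followed the same order at a lower level. It was measured at 4.63, 4.33 and 4.39 CPM in non-treated cells, 21.6, 18.7 and 19.4 under ATRA, 6.90, 6.48 and 7.14 under CDK4/6i, and 33.5, 38.2 and 39.3 under both drugs. No library of one group overlapped another group. The log2 fold changes were 2.16 with ATRA (SE 0.11), 0.62 with CDK4/6i (SE 0.13) and 3.06 with both (SE 0.11), with adjusted p-values of 9.01e-23, 8.44e-05 and 2.92e-30 in edgeR's quasi-likelihood test.

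DUSP5, the nuclear phosphatase that binds ERK and holds it in the nucleus, rose with ATRA and rose further with both drugs. Its levels were 8.41, 7.65 and 7.66 CPM in non-treated cells, 18.3, 17.2 and 17.8 under ATRA, 7.21, 6.91 and 6.79 under CDK4/6i, and 57.2, 58.1 and 57.3 under both drugs. The CDK4/6i libraries lay below all 3 non-treated libraries, by less than the test could call: the log2 fold change with CDK4/6i was -0.18 (95% interval -0.40 to 0.04, adjusted p = 0.162 by edgeR's quasi-likelihood test). DUSP5 rose with ATRA by 1.17 on the log2 scale (SE 0.094, adjusted p = 1.07e-15) and with both drugs by 2.86 on the log2 scale (SE 0.084, adjusted p = 1.20e-33) in the same edgeR test.

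DUSP2, a nuclear phosphatase best known in activated immune cells, moved one way with ATRA and the other way with both drugs. Its levels were 28.6, 25.3 and 28.3 CPM in non-treated cells, 19.8, 16.7 and 16.2 under ATRA, 30.4, 23.7 and 27.6 under CDK4/6i, and 88.0, 86.3 and 89.0 under both drugs. The ATRA libraries lay below, and the CDK4/6i+ATRA libraries above, all non-treated libraries, while the CDK4/6i libraries overlapped the non-treated ones. In edgeR's quasi-likelihood test, DUSP2 fell with ATRA (-0.65, SE 0.082, adjusted p = 1.24e-09) and rose with both drugs (1.68, SE 0.069, adjusted p = 2.84e-27). With CDK4/6i alone the log2 fold change was -0.01 with a 95% interval of -0.16 to 0.15, and its sign turned under other scalings.

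DUSP1, the phosphatase that serves stress and ERK signals alike and is known as a fast immediate early gene, was low in every group. Its libraries held 6 to 16 counts, which were 0.721, 0.627 and 0.901 CPM in non-treated cells, 0.493, 0.350 and 0.552 under ATRA, 0.778, 0.856 and 0.644 under CDK4/6i, and 1.19, 0.624 and 0.909 under both drugs. All 4 groups overlapped except that ATRA lay below the non-treated cells, CDK4/6i and CDK4/6i+ATRA. No comparison was called in edgeR's quasi-likelihood test: the 95% intervals of the log2 fold change were -1.57 to 0.20 with ATRA, -0.80 to 0.82 with CDK4/6i and -0.58 to 1.11 with both drugs. Against ATRA alone, both drugs together gave 0.95 (adjusted p = 0.0606), which became a call (1.15, adjusted p = 0.0433) without CDK4/6i+ATRA replicate 2.

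Of the Sprouty genes, SPRY2 encodes the family member most often described as an inhibitor of growth factor signals to RAS. It was measured at 57.3, 55.7 and 58.6 CPM in non-treated cells, 171, 155 and 159 under ATRA, 77.4, 79.1 and 77.1 under CDK4/6i, and 465, 489.8 and 458 under both drugs. The groups did not overlap and had the same order as for DUSP6. SPRY2 rose with ATRA by 1.5 on the log2 scale (SE 0.044, adjusted p = 8.16e-33), with CDK4/6i by 0.44 on the log2 scale (SE 0.047, adjusted p = 2.09e-11) and with both by 3.04 on the log2 scale (SE 0.043, adjusted p = 4.10e-47) in edgeR's quasi-likelihood test.

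SPRY1, of the same family, was the one tested gene that fell with both drugs. It was measured at 21.2, 18.8 and 21.7 CPM in non-treated cells, 17.3, 17.5 and 18.1 under ATRA, 22.1, 18.5 and 19 under CDK4/6i, and 6.32, 6.33 and 7.69 under both drugs. The CDK4/6i+ATRA libraries lay below every other library, the ATRA libraries lay just below the non-treated ones, and the CDK4/6i libraries overlapped them. With both drugs SPRY1 fell to 0.331 of its non-treated level (log2 fold change -1.60, SE 0.11, adjusted p = 7.19e-18 by edgeR's quasi-likelihood test). With CDK4/6i alone it was -0.05 (95% interval -0.22 to 0.13, adjusted p = 0.662). The change with ATRA was small (-0.22, adjusted p = 0.0233 by edgeR) and was no longer called with DESeq2's size factors (adjusted p = 0.0524), library size alone (0.0662), only the groups compared (0.0617) or DESeq2 (0.102). It was also lost without non-treated replicate 1 (adjusted p = 0.0707) or 3 (0.104) and without ATRA replicate 1 (0.061) or 2 (0.0549).

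SPRED1, which brings the RAS GTPase-activating protein neurofibromin to the membrane, had 0 to 4 counts per library and 14 in all, and did not pass the filter. Its libraries held 1, 1 and 1 counts in non-treated cells, 0, 4 and 0 with ATRA, 1, 0 and 2 with CDK4/6i, and 0, 2 and 2 with both drugs. A difference between groups was not detectable at this depth.

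PHLDA1, a pleckstrin homology domain protein transcribed early after growth factor signals, changed most among the 10 genes. It was measured at 1.74, 2.13 and 2.42 CPM in non-treated cells, 55.9, 43.0 and 43.0 under ATRA, 7.93, 9.23 and 8.95 under CDK4/6i, and 651, 635 and 632 under both drugs. The 4 groups did not overlap, in the order non-treated, CDK4/6i, ATRA and CDK4/6i+ATRA. The counts behind these levels were 29 to 43 in non-treated libraries, 151 to 153 with CDK4/6i, 737 to 907 with ATRA and 7104 to 7649 with both drugs. PHLDA1 rose 22.3-fold with ATRA, 4.11-fold with CDK4/6i and 303-fold with both, which is 4.48, 2.04 and 8.24 on the log2 scale (SE 0.12, 0.16 and 0.084). The adjusted p-values in edgeR's quasi-likelihood test were 2.00e-35, 2.97e-15 and 3.13e-53.

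IER3, an early response gene linked to cell survival, was listed at 0 in all non-treated and CDK4/6i libraries, at 0, 1 and 0 counts with ATRA and at 5, 2 and 0 with both drugs. It did not pass the filter. Without a filter, edgeR's quasi-likelihood test gave IER3 an adjusted p of 0.0402 for both drugs against none, on 7 counts. The table lists IER3 on chromosome 6 and on 5 alternate contigs, and 42.6% of the 1586 protein-coding genes listed on such contigs (675 genes) had no count in any library, against 23.1% of the 18007 genes on primary chromosomes only (4164 genes). The level of IER3 can therefore not be read from these counts. The antisense gene IER3-AS1 shares 440 exon bases with it and was at 0. Whether reads were counted by strand is not given in the sources used here.

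**Figure D2:**
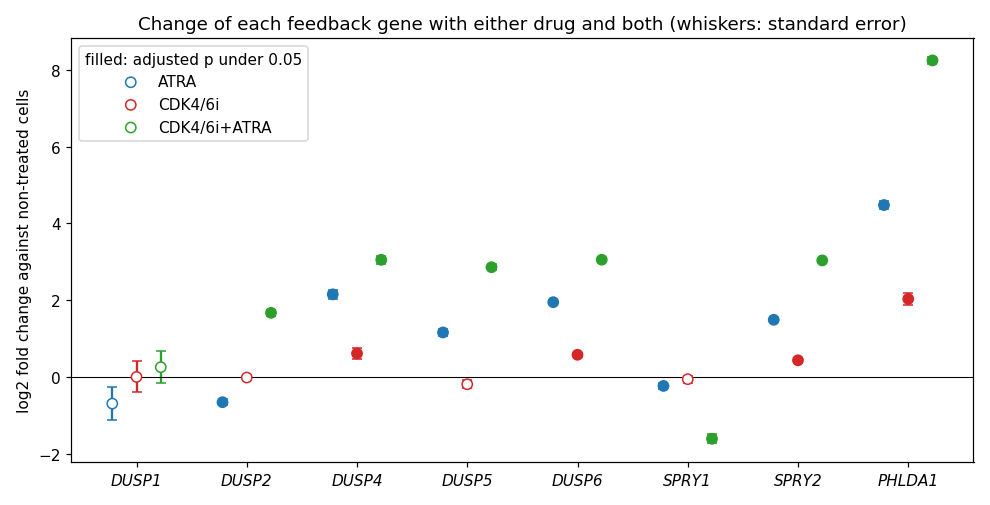
Log2 fold change against non-treated cells (y axis) of the 8 tested feedback genes (x axis) with ATRA (blue), CDK4/6i (red) and CDK4/6i+ATRA (green). Whiskers are standard errors and filled points have an adjusted p under 0.05. The green points stand at 2.86 to 3.06 for DUSP4, DUSP5, DUSP6 and SPRY2, at 8.24 for PHLDA1 and at -1.60 for SPRY1.

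Given one at a time, ATRA raised 5 of the 8 tested genes (DUSP4, DUSP5, DUSP6, SPRY2 and PHLDA1) and lowered DUSP2 and SPRY1, where 32.1% of all tested genes were called higher and 35.5% lower, 67.6% in either direction. All 5 rises were at least 2-fold, a size that 12.9% of all tested genes reached. CDK4/6i raised DUSP4, DUSP6, SPRY2 and PHLDA1 and lowered none, against 28.3% and 27.9% of all tested genes, and of these only PHLDA1 changed at least 2-fold (5.56% of all tested genes). The median log2 fold change over the 8 genes was 1.33 with ATRA and 0.23 with CDK4/6i, beside -0.03 and 0.02 over all tested genes. The share of the genes called with CDK4/6i, 4 of 8, was near the 56.2% of all tested genes called in either direction.

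Adding ATRA to CDK4/6i raised the same 6 genes that rose with both drugs against non-treated cells and lowered SPRY1. Of all tested genes, 39.1% were called higher and 39.5% lower. The rise was 73.7-fold for PHLDA1, 8.24-fold for DUSP5, 6.05-fold for SPRY2, 5.55-fold for DUSP6, 5.41-fold for DUSP4 and 3.21-fold for DUSP2, and SPRY1 was 2.93-fold lower. In edgeR's quasi-likelihood test the adjusted p-values of these 7 genes were at most 2.80e-17. With library size alone, 36.7% of the genes called in this comparison were higher, in place of 49.8% with TMM, and the 6 and 1 genes kept their direction and call.

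Adding CDK4/6i to ATRA also raised these 6 genes and lowered SPRY1, where 36.9% of all tested genes were called higher and 32.8% lower. The rise was 13.6-fold for PHLDA1, 5.01-fold for DUSP2, 3.24-fold for DUSP5, 2.92-fold for SPRY2, 2.15-fold for DUSP6 and 1.86-fold for DUSP4, and SPRY1 was 2.59-fold lower (adjusted p at most 1.95e-13 in edgeR's quasi-likelihood test). DUSP2 and SPRY1, whose 95% intervals with CDK4/6i alone included 0, thus moved by 2.32 and -1.37 on the log2 scale when the inhibitor was given on top of ATRA. Of these 7 genes, DUSP5 also had an interval with CDK4/6i alone that included 0, and it rose 3.24-fold on top of ATRA. With library size alone, 31.6% of the genes called were higher in place of 53.0%, and the direction and call of these 7 genes stayed. The 3 CDK4/6i+ATRA libraries lay above every other library for 6 genes, as for 28.3% of all tested genes, and below every other library for SPRY1, as for 25.7%. The rising order non-treated, CDK4/6i, ATRA and CDK4/6i+ATRA with no overlap held for DUSP4, DUSP6, SPRY2 and PHLDA1, and for 6.95% of all tested genes.

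Whether the drugs acted together by more than their separate effects was tested as the interaction, the log2 fold change with both drugs minus the sum of those with either alone. It was called above 0 for 5 of the 8 genes and below 0 for SPRY1, where 24.5% of all tested genes were called above 0 and 27% below. The interaction was 2.33 for DUSP2 (SE 0.11, adjusted p = 3.68e-24), 1.88 for DUSP5 (SE 0.13, 4.44e-17), 1.72 for PHLDA1 (SE 0.21, 1.57e-09), 1.10 for SPRY2 (SE 0.061, 5.54e-21), 0.52 for DUSP6 (SE 0.062, 6.82e-10) and -1.32 for SPRY1 (SE 0.15, 7.55e-11), all by edgeR's quasi-likelihood test. In folds, PHLDA1 would have risen 91.6-fold had the single effects multiplied, and rose 303-fold. DUSP5 would have risen 1.98-fold and rose 7.27-fold, SPRY2 3.83-fold and 8.22-fold, and DUSP6 5.82-fold and 8.33-fold. For DUSP2 the product of the single effects was 0.636 and the measured ratio 3.20.

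DUSP4 was the rising gene without a called interaction, at 0.28 (95% interval -0.04 to 0.60, adjusted p = 0.146 by edgeR's quasi-likelihood test), and it turned to -0.04 with library size alone. DUSP1 gave 0.94 with an interval of -0.28 to 2.16. Scaling matters for this test: with library size alone the median interaction of all genes moved from -0.02 to -0.34, and 18.5% of the called genes were above 0 in place of 47.5%. The 6 calls and their signs stayed, at 2.01 for DUSP2, 1.56 for DUSP5, 1.41 for PHLDA1, 0.78 for SPRY2, 0.20 for DUSP6 and -1.64 for SPRY1.

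**Figure D3:**
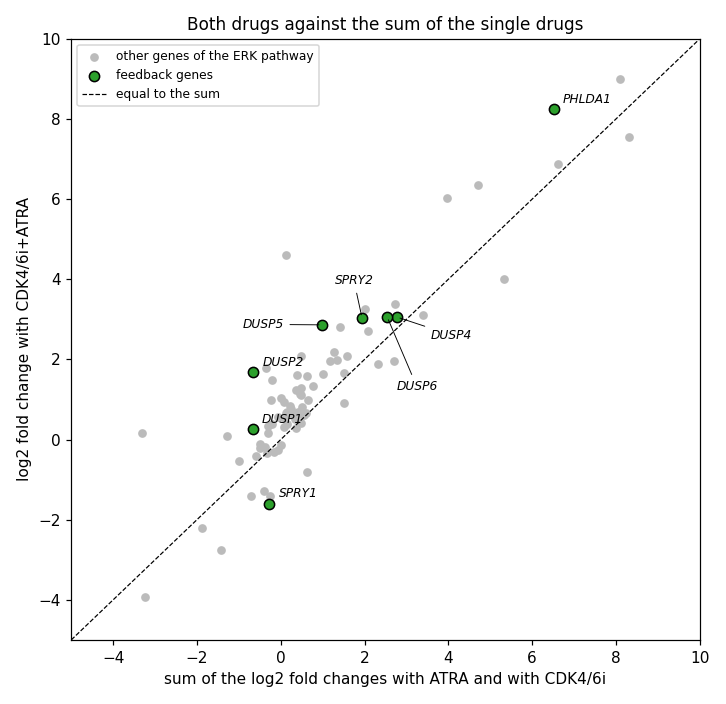
Log2 fold change with CDK4/6i+ATRA (y axis) against what the log2 fold changes of the single drugs add up to (x axis), for the 8 tested feedback genes (green, named) and 73 other genes of the ERK pathway (grey). The dashed line marks equality. Of the genes with a called interaction, PHLDA1, DUSP2, DUSP5, SPRY2 and DUSP6 lie above the line by 0.52 to 2.33. SPRY1 lies below it, with a difference of -1.32. DUSP1 and DUSP4, whose interactions were not called, also lie above the line.

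Levels of different genes were compared per kilobase of exon (RPKM on the TMM scale), from the exon lengths of the table. In non-treated cells the order was SPRY2 at 16.5 RPKM, DUSP2 at 15.5, DUSP6 at 11.7, SPRY1 at 5.39, DUSP5 at 3.19, DUSP4 at 0.612, DUSP1 at 0.372 and PHLDA1 at 0.355. The neighbours SPRY2 and DUSP2 differed by about the SD of the libraries (0.416 and 1.03 RPKM), and DUSP1 and PHLDA1 by less (0.0692 and 0.0576). With both drugs PHLDA1 stood second at 108 RPKM ± 1.73 (SD, n = 3), after SPRY2 at 136 ± 4.81 and before DUSP6 at 97.3 ± 0.910. DUSP2 followed at 49.6, DUSP5 at 23.2, DUSP4 at 5.09, SPRY1 at 1.78 and DUSP1 at 0.451. With ATRA alone SPRY2 (46.7 ± 2.33) and DUSP6 (45.3 ± 1.56) led and did not differ beyond their SD.

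**Figure D4:**
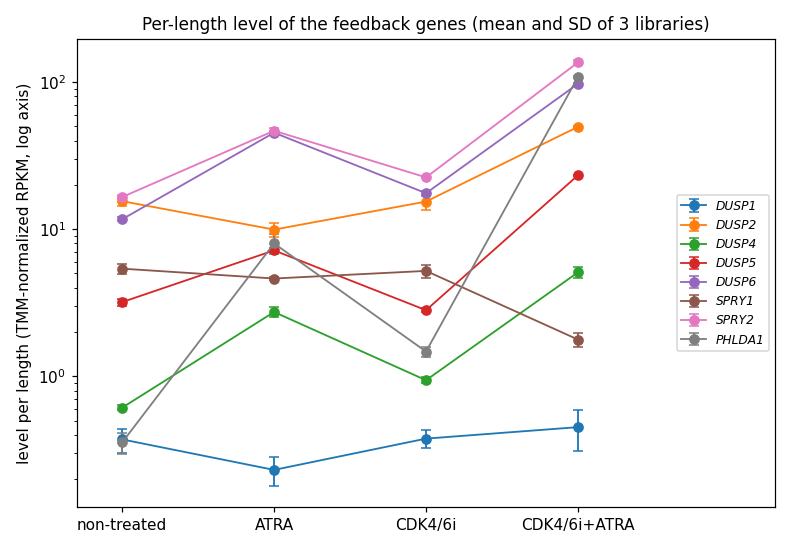
Mean level per length (TMM-normalized RPKM, log axis) of the 8 tested feedback genes in the 4 groups, with whiskers for the SD of 3 libraries; lines join the groups for reading only. PHLDA1 moves from 0.355 RPKM in non-treated cells to 108 with both drugs, while SPRY1 moves from 5.39 to 1.78.

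Beside the feedback genes, the rest of the cascade was read from the same libraries. The 86 other genes of the pathway were compiled by role with earlier results of these data known, so their counts are a description and no independent test. Of these, 73 were tested. With ATRA 46 were called higher and 17 lower, with CDK4/6i 27 and 24, and with both drugs 54 and 14 (edgeR's quasi-likelihood test). The shares higher and lower were 63% and 23.3% with ATRA, beside 32.1% and 35.5% of all tested genes, and 74% and 19.2% with both drugs, beside 41% and 40.7%. With CDK4/6i they were 37% and 32.9%, near the 28.3% and 27.9% of all tested genes. NRAS, the mutant RAS gene of this line, stood at 177 CPM ± 8.10 in non-treated cells, 152 ± 7.49 under ATRA, 144 ± 2.15 under CDK4/6i and 164 ± 6.13 under both drugs (SD, n = 3). Its log2 fold change with both drugs was -0.10 (adjusted p = 0.0224 by edgeR), which was not called with DESeq2's size factors, with DESeq2, with at least 10 counts in every library, or without non-treated replicate 1 (-0.07, adjusted p = 0.135) or CDK4/6i+ATRA replicate 1 (-0.08, adjusted p = 0.119). RRAS was low, at 0.635 and 1.98 CPM. HRAS, like IER3 a gene listed on another contig, was at 0.

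All 8 RAF, MEK and ERK kinases were called higher with both drugs against non-treated cells, with a median log2 fold change of 0.60. Of all tested genes, 41% were called higher and 81.7% in either direction in this comparison, with a median of 0.02. MAP3K8, which activates MEK in immune cells, rose by 1.61 from 13.0 to 39.8 CPM, MAP2K2 (MEK2) by 1.00 and BRAF by 0.69. MAPK3 rose by 0.64, MAP2K1 (MEK1) by 0.56 and ARAF by 0.32, the last of which was not called with library size alone (0.05). Against ATRA alone 6 of the 8 were called higher. With library size alone, ARAF, MAPK3, NRAS and the RAS GTPase-activating gene RASAL3 turned to values of -0.22 to -0.20. All of these were then called lower (adjusted p of 3.72e-05 for NRAS, 9.62e-05 for RASAL3, 5.49e-04 for ARAF and 0.0281 for MAPK3 by edgeR). The direction of these small changes thus depends on the scaling.

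The counts by role that follow are over short lists, and the share of all tested genes called with both drugs was 41% higher and 40.7% lower. Above RAS, 5 of the 6 tested adaptor and docking genes were called higher with both drugs and 1 lower. CBL, a ubiquitin ligase of receptors, rose by 2.18 on the log2 scale from 135 to 609 CPM, and the docking gene GAB2 by 1.79 from 9.76 to 33.8 CPM. GAB2 fell with ATRA alone (-0.50, adjusted p = 2.93e-04 by edgeR) and had an interaction of 2.15, the same 2 signs as DUSP2. Of the 5 tested RAS exchange factors, 3 were called higher and 2 lower, a split that says little beside those shares. RASGRP4 rose by 3.11, and RASGRP3 was at 3 to 5 counts per non-treated library and at 14.8 CPM with both drugs. The 6 tested RAS GTPase-activating genes split into 4 higher and 2 lower, which says as little, with RASAL3 at 1.88.

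Among scaffolds and modulators, 3 of 5 were called higher and 2 lower with both drugs. PEBP1, which encodes the Raf kinase inhibitor protein, was at 305 CPM ± 5.66 in non-treated cells, 130.3 ± 5.93 under ATRA, 264 ± 15.1 under CDK4/6i and 44.9 ± 1.31 under both drugs (SD, n = 3), a log2 fold change of -2.76 with both drugs, and the scaffold gene IQGAP1 rose by 1.14. Kinases downstream of ERK gave 5 higher and 2 lower of 7, with RPS6KA1 (RSK1) at 1.99 and RPS6KA4 (MSK2) at -1.41, a log2 fold change in each case.

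Among other MAP kinase phosphatases, 2 of 6 tested were called higher with both drugs, 1 lower and 3 not called, and with ATRA none was higher and 4 were lower, where 32.1% and 35.5% of all tested genes were. DUSP16, which acts on JNK and p38, stood at 6.58 CPM ± 0.449 in non-treated cells, 7.63 ± 0.551 under ATRA, 7.96 ± 0.381 under CDK4/6i and 27.9 ± 1.48 under both drugs (SD, n = 3), with an interaction of 1.60 (adjusted p = 6.78e-12 by edgeR). Like RPS6KA1, DUSP16 is among the 7 tested pathway genes that are also listed on other contigs. What this does to their levels was not tested. DUSP3 fell from 28.0 CPM in non-treated cells to 6.64 with ATRA and 6.0 with both drugs and stood at 32.2 with CDK4/6i. DUSP8 was listed at 0, and DUSP9 had 1 count in all. Of the other Sprouty, SPRED and receptor feedback genes, 4 of 5 were called higher with both drugs and none lower. SPRY4 stood at 4.66 CPM ± 0.461 in non-treated cells, 5.81 ± 0.836 under ATRA, 4.11 ± 0.725 under CDK4/6i and 114 ± 2.85 under both drugs (SD, n = 3), a rise of 4.61 on the log2 scale with an interaction of 4.50 (adjusted p = 2.90e-26 by edgeR). ERRFI1, a feedback inhibitor of the EGF receptor, had 0 to 2 counts per non-treated library and 1.08 CPM with both drugs.

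Of the 15 immediate early and ternary complex transcription factors, 13 were called higher and 1 lower with both drugs, with a median log2 fold change of 1.97. EGR2 stood at 0.476 CPM ± 0.0483 in non-treated cells, 20.0 ± 2.35 under ATRA, 3.20 ± 0.389 under CDK4/6i and 248 ± 1.75 under both drugs (SD, n = 3), and EGR3 at 0.332 CPM ± 0.222 in non-treated cells, 13.3 ± 1.49 under ATRA, 2.89 ± 1.06 under CDK4/6i and 64.3 ± 8.94 under both drugs. Both are zinc finger factors induced by ERK, and both had at most 10 counts per non-treated library. EGR2 rose by 9.0 and EGR3 by 7.54 on the log2 scale with both drugs (adjusted p = 9.75e-51 and 3.34e-36 by edgeR). Later targets gave 5 higher and 2 lower of 7. TRIB1, a pseudokinase gene, rose from 54.9 to 577 CPM, and MYC fell from 1292 to 84.4 CPM (-3.94 on the log2 scale).

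**Figure D5:**
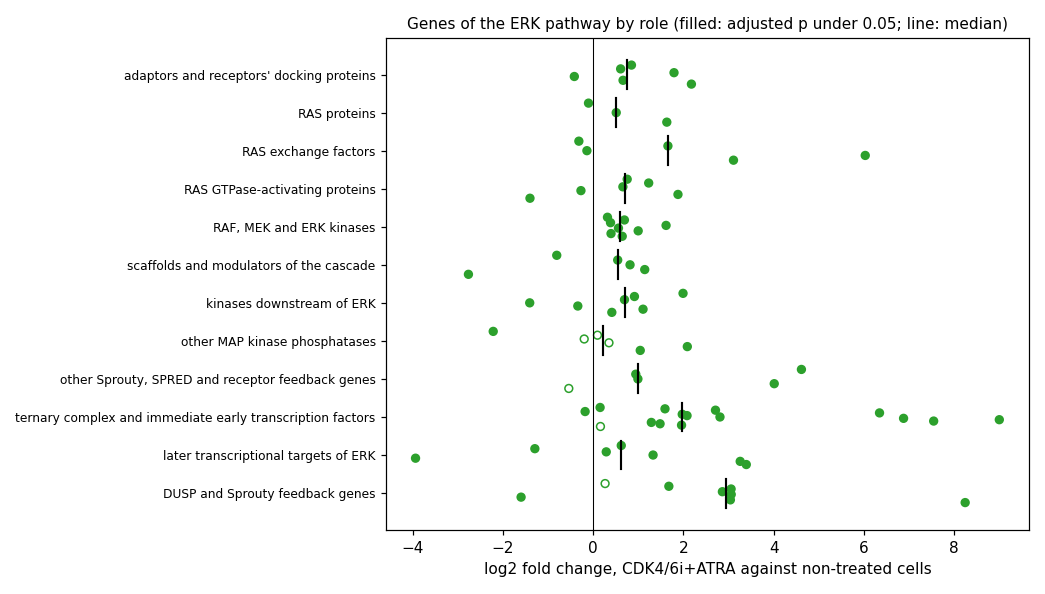
Log2 fold change from non-treated cells to cells given CDK4/6i+ATRA (x axis) of each tested gene of the ERK pathway, in 1 line per role (y axis) with the feedback genes at the bottom. Filled points have an adjusted p under 0.05 and black ticks mark the median, which is 2.95 for the feedback genes, 1.97 for the transcription factors and 0.60 for the RAF, MEK and ERK kinases.

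Counted by interaction, 43 of the 73 pathway genes were called above 0 and 9 below, and with library size alone 29 and 20. In shares above and below 0, these are 58.9% and 12.3% with TMM, beside 24.5% and 27% of all tested genes, and 39.7% and 27.4% with library size alone, beside 10.3% and 45.5%. Against ATRA alone, both drugs gave 55 higher and 11 lower with TMM and 41 and 24 with library size alone, and against CDK4/6i alone 55 and 10, and 50 and 17. Of all tested genes, 36.9% and 32.8% were called higher and lower against ATRA with TMM and 22.2% and 48.1% with library size alone, and 39.1% and 39.5% and then 28.6% and 49.2% against CDK4/6i. The 13 pathway genes that were not tested include HRAS, DUSP8 and PHLDA2, which were at 0 counts and are listed on other contigs.

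The genes most like each member over the 12 libraries were ranked by Pearson's r of log2(CPM + 1), among genes of at least 5 CPM on average. The 12 points form the 4 treatment groups, so a high r says that the group means run alike. SPRY2 was most like MCL1 (r = 0.999), ARHGEF2 and CASS4, DUSP6 like HIPK2 (0.999), PLXNC1 and DDX60L, PHLDA1 like PRKAR1A (0.999), BCL3 and SDCBP, DUSP5 like BHLHE40 (0.999), TRIM11 and EFNB2, and DUSP4 like CMTM3 (0.999), PREX1 and MYO1F. DUSP2 was most like SETD3 (0.993), SATB1 and GAB2, and SPRY1 like COL4A1 (0.992), GYPC and ZMYND11. DUSP1, with its few counts, reached 0.835 with RFNG, followed by SPTLC2 and TTC13.

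The markers of the immature HL60 state did not all run alike over the groups. MPO stood at 6517 CPM ± 168 in non-treated cells, 293 ± 27.4 under ATRA, 3469 ± 66.4 under CDK4/6i and 28.0 ± 5.15 under both drugs (SD, n = 3), with no overlap between groups. This order is the reverse of that of DUSP4, DUSP6, SPRY2 and PHLDA1, and its part in their rise was not tested. The share of all tested genes with this falling order was not counted. All 3 libraries with both drugs lay below every other library for 25.7% of all tested genes. CTSG, a granule protease gene, stood at 14.0 CPM ± 2.42 in non-treated cells, 0.623 ± 0.240 under ATRA, 3.26 ± 0.397 under CDK4/6i and 0.638 ± 0.157 under both drugs, and its libraries with ATRA and with both drugs overlapped. CD33 stood at 93.9 CPM ± 2.50 in non-treated cells, 77.9 ± 3.41 under ATRA, 118 ± 3.43 under CDK4/6i and 99.8 ± 5.24 under both drugs, so it was highest with CDK4/6i and lowest with ATRA, and the libraries with both drugs overlapped the non-treated ones. ELANE, AZU1 and PRTN3 were at 0. The sum over the list was 6443 to 6774 CPM in non-treated libraries, 348 to 403 with ATRA, 3534 to 3668 with CDK4/6i and 120 to 138 with both drugs. It was almost all MPO in non-treated cells and mostly CD33 with both drugs.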

How the data were processed

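RNA-Seq libraries of HL60 cells, 3 biological replicates in each of 4 groups, were used. Reads had been trimmed with Trimmomatic 0.33 and aligned to hg38 with STAR 2.7.11a, as the submitters' processing notes and the paper's methods give, under the NCBI RefSeq annotation. The authors deposited raw counts, whole numbers per gene without normalization, with exon positions and a length for each gene. The paper names RSEM as the source of the counts, while the table has the layout of featureCounts. The authors used DESeq2 for their own tests. For a gene listed on several contigs the length is summed over them, and RPKM was given only for genes on 1 contig.

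The counts were tested in edgeR 4.0.16 (R 4.3.3, limma 3.58.1) with TMM, filterByExpr on the 4 groups and the quasi-likelihood F test in a single model of all 12 libraries with 8 residual degrees of freedom. The 5 comparisons and the interaction were adjusted by Benjamini-Hochberg over 13318 genes and called below 0.05. Genes varied between replicates with a common biological coefficient of variation of 3.70%. The p-values rest on the spread between these libraries. The test draws the spread of each gene toward a trend over all tested genes. A p-value therefore does not rest on the gene's own 8 residual degrees of freedom alone. Replicate libraries differed by more than sampling noise (chi-square per degree of freedom 1.82 to 6.26). Intervals are 95% intervals of the fitted log2 fold change, and the floor of 3 counts covers counting error only, because no molecular identifiers tell copies of 1 molecule apart. The test was tried on simulated counts first.

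The 10 genes and the lists were chosen with earlier results of these data known, the lists from textbook roles of the genes. Besides the 10 genes, the text names tested RAS genes and RAF, MEK and ERK kinases, of each other list the 2 tested genes with the largest absolute log2 fold change with both drugs against non-treated cells, the 3 genes most like each tested member, and genes of a list that were not tested. Some genes of the lists are counted but not reported here singly. Alternatives were scaling by library size alone or by the size factors of DESeq2, no filter or a filter of at least 10 counts in each library, a fit to only the groups compared, a block for the replicate number, DESeq2 1.42.0 in place of edgeR, leaving out each library in turn and, chosen after seeing the data, leaving out genes listed on alternate or patch contigs. Promoter sequences came from RefSeq (GRCh38.p14). The plots used matplotlib 3.10.9 (python 3.11.15).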

Additional observations from a re-analysis of the deposited data

Results flagged for a closer look

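For 6 of the 8 tested feedback genes, the effect of ATRA differed between cells without and with CDK4/6i, as tested by the interaction in edgeR's quasi-likelihood model. The same test called 51.4% of all tested genes. The difference equals that of the CDK4/6i effect without and with ATRA. For DUSP2, the log2 fold change with ATRA was -0.65 without CDK4/6i and 1.68 with it, a difference of 2.33 (adjusted p = 3.68e-24 by edgeR). For DUSP5, the log2 fold change with ATRA was 1.17 without CDK4/6i and 3.04 with it, a difference of 1.88 (adjusted p = 4.44e-17 by edgeR). For PHLDA1, the log2 fold change with ATRA was 4.48 without CDK4/6i and 6.20 with it, a difference of 1.72 (adjusted p = 1.57e-09 by edgeR). For SPRY2, the log2 fold change with ATRA was 1.5 without CDK4/6i and 2.60 with it, a difference of 1.10 (adjusted p = 5.54e-21 by edgeR). For DUSP6, the log2 fold change with ATRA was 1.95 without CDK4/6i and 2.47 with it, a difference of 0.52 (adjusted p = 6.82e-10 by edgeR). For SPRY1, the log2 fold change with ATRA was -0.22 without CDK4/6i and -1.55 with it, a difference of -1.32 (adjusted p = 7.55e-11 by edgeR). DUSP2 turned in direction, with every ATRA library below and every CDK4/6i+ATRA library above the libraries of cells without ATRA. The others differed in size, and for SPRY1 the change with ATRA alone was lost under several settings.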

How the results depend on the processing

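The number of feedback genes, pathway genes and all genes called stayed within 1.5 times its value in every alternative run, for all 6 comparisons. Over leaving out each library in turn, 6 to 7 feedback genes were called with ATRA, 4 with CDK4/6i, 7 with both drugs, 7 against CDK4/6i, 7 to 8 against ATRA and 6 by interaction. All genes called were 8613 to 9161 with ATRA, 7000 to 7620 with CDK4/6i and 10678 to 11102 with both drugs. They were 10225 to 10657 against CDK4/6i, 8909 to 9425 against ATRA and 6503 to 6693 by interaction. With all libraries, the shares of tested genes called were 67.6%, 56.2%, 81.7%, 78.6%, 69.8% and 51.4% in the same order. Library size alone, which leaves the composition of the CDK4/6i+ATRA libraries uncorrected, moved the median of all genes with both drugs from 0.02 to -0.25 and turned several small values: against ATRA, NRAS to -0.20, RASAL3 to -0.20, ARAF to -0.22 and MAPK3 to -0.20, against CDK4/6i, DUSP1 to -0.0199 and NRAS to -0.0918, and by interaction, DUSP4 to -0.0413, ARAF to -0.0800, BRAF to -0.0453 and MAPK3 to -0.11. The turned values against ATRA were called lower, as was NRAS against CDK4/6i (adjusted p = 0.0356 by edgeR). The other turned values were not called. TMM and library size both give relative levels, and the amount of RNA per cell was not measured in these libraries. The value of DUSP2 with CDK4/6i alone was at 0 within error and turned to 0.0016 with DESeq2's size factors, 0.0057 with library size alone and 3.27e-04 with DESeq2. Without a filter, ARAF against ATRA turned to -0.0084, and the cause was not tested. Over the left-out libraries, the values with CDK4/6i alone, none of them called, changed sign for DUSP1 (-0.10 to 0.17), DUSP2 (-0.10 to 0.0822) and SPRY1 (-0.14 to 0.00106). Libraries of different groups with the same replicate number did not deviate together (r of -0.18 to 0.10 over 18 pairs, 1 of them over 0.1, against -0.14 to 0.16 over 36 pairs with different numbers), so the numbers were not read as a pairing. With the replicate number as a block, 7, 4 and 7 feedback genes were called with ATRA, CDK4/6i and both drugs, 6 by interaction, and the interaction of DUSP2 was 2.33 (2.33 without it). The precision for DUSP1 and SPRED1 is limited by 6 to 16 and 0 to 4 counts per library. For IER3, at 0 to 5 counts, depth and its listing on other contigs cannot be told apart.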
